A study of Mus musculus with 2 samples.

Results

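The cells described here are CD4 T cells of mouse EMT6 tumours that carry transcripts of Cd40lg, the gene of CD40 ligand. A filtered cell was a member with at least 2 UMIs (unique molecular identifiers, each counting 1 captured transcript) summed over Cd3d, Cd3e and Cd3g, at least 1 of Cd4 and at least 1 of Cd40lg. It also had to have none of Cd8a, Cd8b1, Foxp3 or Igfbp4. There were 635 members among 16770 filtered cells, 456 in the mSTAR1302 library and 179 in the vehicle library, and they are called Cd40lg cells below. Because transcripts chose the cells, the genes in the gate and the contrast with CD4 cells that lack Cd40lg are descriptions.

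The study profiled tumour-infiltrating T cells with 3′ droplet RNA sequencing on a 10x Genomics instrument. All mice were BALB/c, 4 to 6 weeks old, with subcutaneous EMT6 tumours, a transplanted mouse mammary carcinoma line. They were assigned at tumour volumes of 80 to 150 mm3. One group received 2 weekly intraperitoneal cycles of mSTAR1302, described elsewhere as interleukin-2 fused to an antibody against T cell receptors that use Trbv13-2 or Trbv13-3, and the other was the vehicle group. CD4+ and CD8+ cells were pulled from the digested tumours together with magnetic beads. Each group is 1 library, and the sources used here do not state how many mice stand behind it. No difference between libraries below has a replicate check, no test was made, and treatment, library and mice cannot be told apart.

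CD40 ligand is a membrane protein of the tumour necrosis factor family that appears on helper T cells after they are activated. It binds CD40 on B cells, dendritic cells and macrophages, and through it helper cells license antigen presentation and antibody class switching. Helper cells are commonly sorted by the cytokines they make: interferon gamma for type 1, interleukins 4, 5 and 13 for type 2, interleukin 17 for type 17 and interleukin 21 for follicular helpers. Regulatory CD4 cells, marked by Foxp3, usually carry little CD40 ligand.

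The Cd40lg cells held 3353137 UMIs in the mSTAR1302 library and 1490071 in the vehicle library, with medians of 6811 and 7577 UMIs and 1973 and 2261 genes per cell. Levels are in CPM, counts per mega-UMI: the UMIs of a gene summed over cells and scaled to the cells' own total. The 95% intervals hold the error of counting alone. The libraries shared 17 barcodes among filtered cells, and none was a member in both. Droplets with 100 to 500 UMIs were read as a measure of free RNA. In them the macrophage and monocyte markers summed to 346 CPM with mSTAR1302 and 1967 with vehicle, and in the Cd40lg cells to 17.9 and 201, the latter 83.7 without the vehicle cell described next. The B cell markers summed to 2.98 and 2.01 CPM in the Cd40lg cells, and the defining genes Ms4a1 and Pax5 had no UMI there in either library. One vehicle Cd40lg cell held 56210 UMIs, 1399 of them from Ctsk, a protease gene of osteoclasts and macrophages, beside 2 UMIs of Cd3d, 6 of Cd3e, 13 of Cd3g and 4 of Cd4. That cell held 180 of the 300 macrophage marker UMIs of the vehicle Cd40lg cells.

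Most members were defined by few Cd40lg UMIs. Of the mSTAR1302 members 187 held 1 Cd40lg UMI, 121 held 2 and 148 held 3 or more, up to 14. Of the vehicle members 84 held 1, 52 held 2 and 43 held 3 or more, up to 9. Many cells lay just outside the gate. With every other criterion met, 8 and 16 Cd40lg cells were left out for a single Foxp3 UMI, 121 and 25 for a single CD8 UMI, 143 and 46 for no Cd4 UMI, and 4 and 23 for Igfbp4, in the mSTAR1302 and vehicle libraries respectively.

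Cd40lg was found in a larger share of Foxp3-negative CD4 cells after mSTAR1302. With mSTAR1302 456 of 776 such cells had a UMI (58.8%, Clopper-Pearson 95% interval 55.2 to 62.3), and with vehicle 179 of 554 did (32.3%, 28.4 to 36.4). The difference was 26.5 percentage points (Newcombe interval 21.1 to 31.5). Thinning every cell to 3000 UMIs left the gene in 42.8% of 675 cells with mSTAR1302 and 21.1% of 479 with vehicle, 21.7 points apart (16.4 to 26.8).

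The denominator differed between libraries in its regulatory transcripts. Ikzf2, which encodes Helios, a transcription factor of regulatory T cells, stood at 191 CPM in the mSTAR1302 CD4 cells without Cd40lg and at 966 CPM in those of vehicle. In the Foxp3-positive CD4 cells Ikzf2 stood at 1118 and 1522 CPM. Without every cell that held a UMI of Ikzf2, Ccr8 or Klrg1, the Cd40lg share was 62.8% against 48.7%, a difference of 14.1 points. A requirement of 2 Cd40lg UMIs gave 34.7% against 17.1%.

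Other T cells set the scale for these shares. Among CD4 cells with Foxp3, a Cd40lg UMI was present in 28 of 146 with mSTAR1302 (19.2%) and 97 of 1365 with vehicle (7.11%). Among CD8 cells the shares were 9.84% of 6290 and 11.5% of 2460, and after thinning 5.15% and 4.27%. In the macrophage gate, which should lack the gene, 0 of 14 and 0 of 44 cells had one, and the limit of 3 counts allows shares of cells with a UMI of up to 21.4% and 6.82%. Those cells had median depths of 13551 and 22586.5 UMIs, so they were deeper than the members. Near-empty droplets held a Cd40lg UMI in 0.642% and 0.227% of cases. Those droplets held far fewer UMIs than the gated cells, so their percentages are not matched for depth and set no scale for the shares. The part of free RNA in the Cd40lg shares was not tested. The share in Foxp3-negative CD4 cells thus exceeded the CD8 and Foxp3 values in both libraries, also after thinning, where the Foxp3 cells stood at 11.9% and 2.79%.

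**Figure D1:**
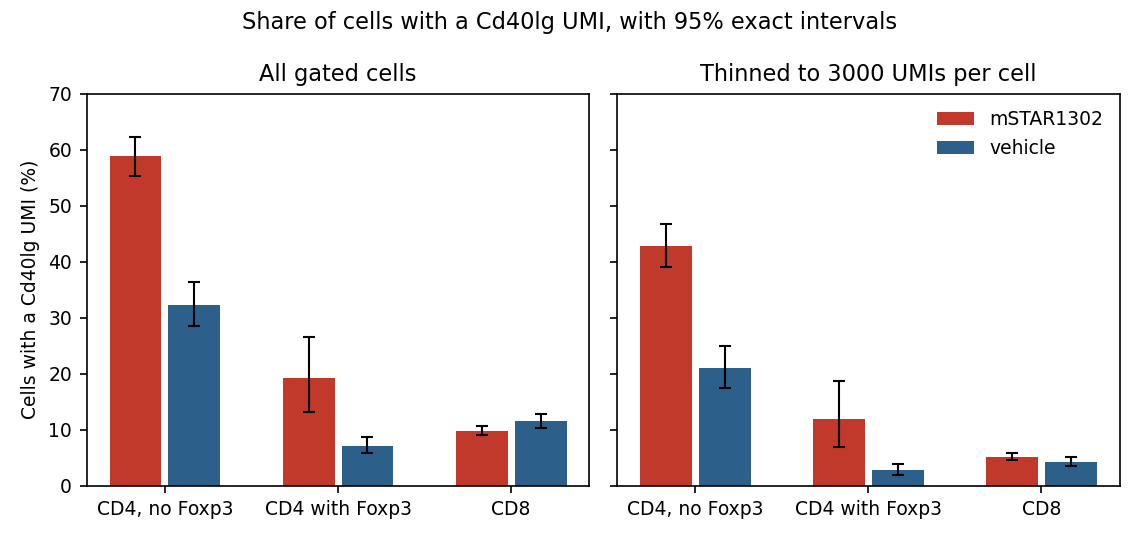
Percent of cells with a Cd40lg UMI (y axis) in 3 gates of each library, on all gated cells (left) and after thinning to 3000 UMIs (right). Bars are shares and error bars 95% Clopper-Pearson intervals for counting error. Foxp3-negative CD4 cells stand at 58.8% with mSTAR1302 and 32.3% with vehicle, above both other gates.

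As parts of the T cell compartment, Cd40lg cells made up 5.23% of 8718 T cells with mSTAR1302 and 2.66% of 6729 with vehicle. CD4 cells without Cd40lg, Foxp3 or Igfbp4 made up 3.67% and 5.57%, and Foxp3 CD4 cells 1.67% and 20.3%. Of all CD4 cells free of CD8 transcripts, 48.7% of 937 were Cd40lg cells with mSTAR1302 and 9.01% of 1987 with vehicle. The bead isolation of CD4+ and CD8+ cells can set these shares, and its part was not tested.

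The marker genes attached to the cells were Cd40lg, Tnfsf8, Lgals7, Ramp3, Il13 and Ifitm2. Cd40lg lies at chrX:57212143-57224042 on the plus strand (GENCODE M21, mouse build GRCm38, which mm10 equals). In the Cd40lg cells it stood at 338 CPM (318 to 358) with mSTAR1302 and 248 CPM (223 to 274) with vehicle, a ratio of 1.36 (1.21 to 1.54). The gate required the gene, so the level describes the gate.

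Tnfsf8, the gene of CD30 ligand, marked CD4 cells free of Foxp3 in general. It stood at 401 CPM in the mSTAR1302 Cd40lg cells and 434 CPM in those of vehicle, and 46.1% and 46.4% of the cells had a UMI. The CD4 cells without Cd40lg stood at 358 and 222 CPM, the Foxp3 cells at 36.1 and 19.6 CPM, and the CD8 cells at 38.1 and 59.0 CPM. Ramp3, a partner protein that shapes receptors for calcitonin-family peptides, had a similar distribution. Its level was 148 and 240.3 CPM in the Cd40lg cells and 157 and 163 CPM in the CD4 cells without Cd40lg. It was 41.7 and 18.2 CPM in Foxp3 cells and 24.7 and 34.6 CPM in CD8 cells. With mSTAR1302 Ramp3 was therefore no higher in the Cd40lg cells than in their nearest neighbours.

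Lgals7, which encodes galectin-7, and Il13, which encodes a type 2 cytokine, depended on the library. Lgals7 stood at 517 CPM in the mSTAR1302 Cd40lg cells and 104 CPM in those of vehicle, and at 387 and 59.1 CPM in the CD4 cells without Cd40lg. Il13 stood at 194 and 8.72 CPM, and at 68.3 and 6.18 CPM without Cd40lg. Ifitm2, of the interferon-induced transmembrane family, stood at 2679 and 710.0 CPM, and at 1526 and 506 CPM without Cd40lg. The vehicle Cd40lg cells thus carried the label's Cd40lg, Tnfsf8 and Ramp3, while Il13 there rested on 13 UMIs in 5 of 179 cells. All 8 general T cell markers were present in both libraries, and the set summed to 6862 and 6155 CPM.

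Few genes separated the Cd40lg cells from CD4 cells without Cd40lg in both libraries. Of 2542 genes with at least 50 CPM in either population of each library, 2 were at least 2-fold higher in both, Cd40lg itself and Ccl1 (0.0787%), and 5 were at least 2-fold lower in both (0.197%). Ikzf2, Izumo1r, Areg and Rgs16 were among the latter. Within single libraries 18 of 2615 genes were higher (0.688%) and 11 lower (0.421%) with mSTAR1302, and 19 of 3076 were higher (0.618%) and 91 lower (2.96%) with vehicle. The gate used this contrast, so nothing is read from these counts. The CD4 cells without Cd40lg were also shallower. Their median depths were 4895 UMIs with mSTAR1302 and 5394 with vehicle, against 6811 and 7577 in the Cd40lg cells. Some of them may hold Cd40lg that went undetected, and the part of depth in the contrast was not tested. With vehicle the macrophage and monocyte markers summed to 1504 CPM in the CD4 cells without Cd40lg and 201 CPM in the Cd40lg cells. The sums with mSTAR1302 were 37.0 and 17.9 CPM. C1qa, C1qb, C1qc, Lyz2, Apoe and Ms4a7 were among the lower genes with vehicle, as were H2-Ab1, H2-Aa, H2-Eb1 and Cd74. The part of RNA from other cell types in this contrast was not tested.

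Ccl1, the gene of a chemokine that attracts cells bearing CCR8, was unevenly held. It stood at 336 CPM in the mSTAR1302 Cd40lg cells against 134 CPM without Cd40lg, and at 123 CPM against 18.1 CPM with vehicle. A UMI was found in 71 of 456 and 16 of 179 Cd40lg cells. The next genes in the ranking of higher genes were Ifitm1, Ifng, Atf3, Lta, Dusp6, Cxcr6, Ppp3cc, Ifitm2, Ifitm3 and Npm3. Their log2 ratios ran from 0.44 for Npm3 to 1.22 for Ifng with mSTAR1302 and from 0.45 for Ifitm3 to 1.82 for Lta with vehicle. Lta encodes lymphotoxin alpha, a relative of tumour necrosis factor, and stood at 89.2 against 59.2 CPM with mSTAR1302 and 96.0 against 26.5 CPM with vehicle.

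The genes that were lower included several that regulatory cells carry. Ikzf2 stood at 31.0 CPM in the mSTAR1302 Cd40lg cells and 164 CPM in those of vehicle, log2 ratios of -2.58 and -2.55 to the CD4 cells without Cd40lg. Izumo1r, which encodes the folate receptor FR4, had log2 ratios of -2.10 and -1.81, and Areg, the gene of the growth factor amphiregulin, -1.41 and -1.96. Of 22 genes listed for regulatory T cells, 10 passed the floor with mSTAR1302 and 3 of them were lower, while 15 passed with vehicle and 11 were lower. Among all genes 0.421% and 2.96% were lower. A gene could pass through only the CD4 cells without Cd40lg, as Klrg1, Il10 and Entpd1 did with vehicle. These stood at 12.8, 10.1 and 22.8 CPM in the vehicle Cd40lg cells. The floor thus favoured lower calls, and nothing is read from the list counts. Without cells that held Ikzf2, Ccr8 or Klrg1 UMIs, 1 gene was at least 2-fold lower in both libraries, Ccr7, which is none of the 5, and Areg had log2 ratios of 0.78 and 0.75. The part of undetected Foxp3 in the contrast was not tested.

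**Figure D2:**
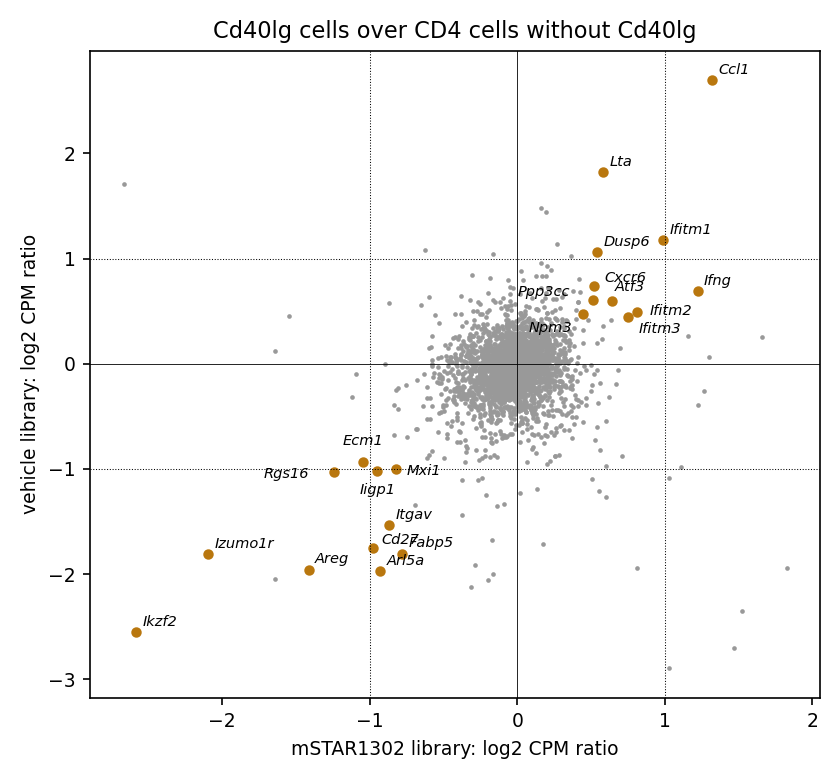
Log2 CPM ratio of Cd40lg cells over CD4 cells without Cd40lg in the mSTAR1302 library (x axis) and the vehicle library (y axis), for 2541 genes past 50 CPM in both libraries, without Cd40lg. Labelled points are named genes and dotted lines mark 2-fold. Ikzf2 and Izumo1r lie at the lower left, Ccl1 at the upper right, and most genes lie within 2-fold.

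Between the libraries the Cd40lg cells differed in 120 of 2871 genes by at least 2-fold (4.18%). With mSTAR1302 44 genes were higher (1.53%) and 76 lower (2.65%). The median log2 ratio of all these genes was -0.15, and scaling by the median of ratios moved it to 0.01 and gave 57 higher and 48 lower genes. The share of higher genes was therefore 36.7% under the UMI total and 54.3% under the other scaling. When each gene's highest cell was left out, 48 genes were higher and 39 lower. In CD4 cells without Cd40lg 0.764% of 3009 genes were higher and 4.89% lower, in Foxp3 cells 0.511% and 1.12% of 3132, and in CD8 cells 1.12% and 3.76% of 2846. The lower genes in CD4 cells without Cd40lg included the macrophage markers C1qa, C1qb, C1qc, Lyz2, Apoe and Ms4a7. A gene could pass the floor through a single library. Counts within the lists below stand beside the shares of 1.53% higher and 2.65% lower among all genes.

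**Figure D3:**
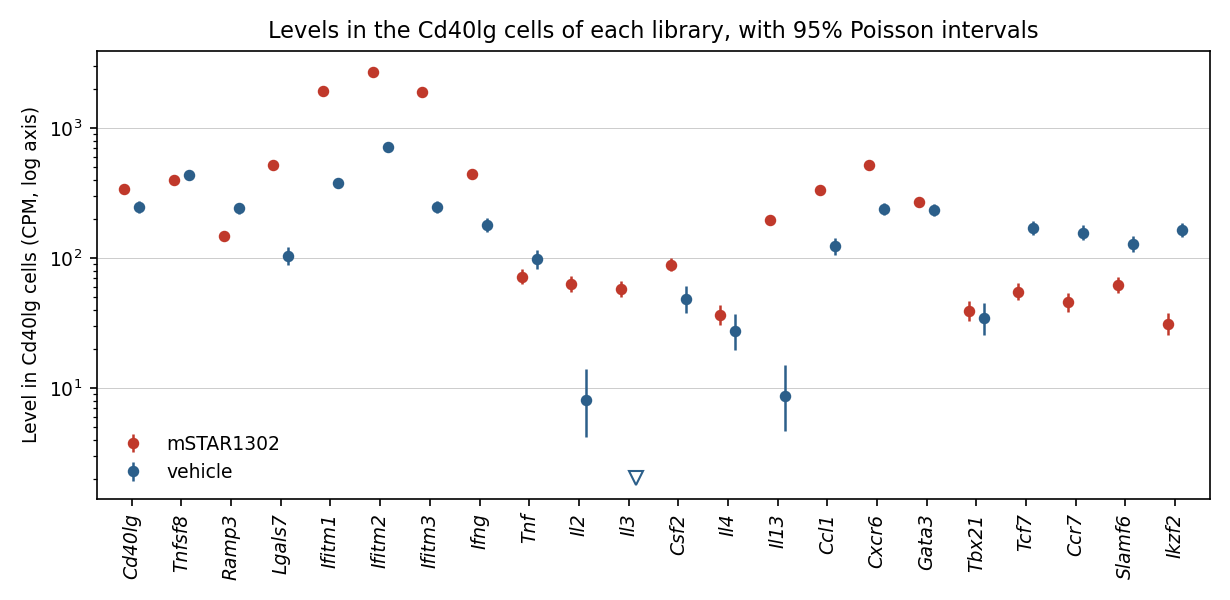
Level in the Cd40lg cells (CPM, log axis) of 22 named genes in each library, with 95% Poisson intervals for counting error. The open triangle stands at the level of 3 UMIs for Il3, which had no UMI in the vehicle cells. Ifitm1 to Ifitm3, Lgals7 and Il13 lie higher with mSTAR1302, and Tcf7, Ccr7, Slamf6 and Ikzf2 lie higher with vehicle.

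The widest ratios toward mSTAR1302 were those of the cytokine genes Il3 and Il13. Of 22 helper cytokine genes 9 passed the floor, with a median log2 ratio of 1.28. Of these 9, 5 were at least 2-fold higher with mSTAR1302 and none was lower, beside 1.53% higher and 2.65% lower among all genes. The 5 were Il2, Il3, Il13, Csf1 and Ifng, and all but Ifng passed the floor through mSTAR1302 alone. Cytokine genes under it in both libraries were not called, so the count and the median partly follow from the floor. Without the cell highest in each, Il2 and Il3 lay at 40.7 and 48.4 CPM with mSTAR1302, under the floor. Il13 had 651 UMIs in 61 of 456 mSTAR1302 Cd40lg cells and 13 UMIs in 5 of 179 vehicle cells. Its level of 194 CPM (179.5 to 209.7) against 8.72 CPM (4.65 to 14.9) gave a ratio of 22.3 (12.9 to 42.0). In cells thinned to 3000 UMIs a UMI of Il13 remained in 10.8% and 0.581%. The near-empty droplets also differed, with 43.2 and 1.40 CPM.

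Il3, which encodes a growth factor for basophils and mast cells, had 195 UMIs in 23 mSTAR1302 Cd40lg cells and 0 in the vehicle cells. Against a floor of 3 UMIs over all vehicle Cd40lg cells it was at least 28.9-fold higher. Its near-empty levels were 50.2 and 5.93 CPM, so the summed mSTAR1302 level of 58.2 CPM lay near that of the droplets. The Il3 UMIs were concentrated, however, and a single cell of 8241 UMIs held 33 of the 195. The part of free RNA in the Il3 values was not tested. Il2, the gene of the T cell growth factor interleukin 2, stood at 63.2 and 8.05 CPM, a ratio of 7.85 (4.40 to 15.4). A single cell held 76 of its 212 UMIs with mSTAR1302, and without the highest cell of each library the ratio was 6.69. The shares of cells with an Il2 UMI were closer, at 7.02% and 5.03%.

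Ifng, the gene of interferon gamma, was the most widely held of these cytokines. A UMI was found in 247 of 456 mSTAR1302 Cd40lg cells (54.2%) and in 70 of 179 vehicle cells (39.1%), and in 38.4% and 25% after thinning. Its level was 439.9 CPM (418 to 463) against 181 CPM (159.6 to 203), a ratio of 2.44 (2.14 to 2.79). Near-empty droplets stood higher than the Cd40lg cells, at 1145 and 352 CPM, and CD8 cells at 1422 and 1009 CPM. The part of free RNA in the Ifng difference was not tested.

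Csf1, the gene of the macrophage growth factor, stood at 159 and 45.6 CPM, and Csf2, which encodes GM-CSF, at 88.9 and 48.3 CPM. Csf2 lay under 2-fold, with a ratio of 1.84 (1.42 to 2.41), but 1 vehicle cell held 32 of its 72 UMIs there. Without the highest cell of each library Csf2 stood at 75.6 and 27.1 CPM, a ratio of 2.79. Tnf, the gene of tumour necrosis factor, stood at 71.9 CPM and 98.0 CPM, with a ratio of 0.734 (0.595 to 0.907). The cytokines thus did not all lie on the same side.

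Il4, the signature cytokine of type 2 helpers, was similar in both libraries and nearly absent elsewhere. It stood at 36.4 CPM (30.2 to 43.4) with mSTAR1302 and 27.5 CPM (19.7 to 37.3) with vehicle, a ratio of 1.32 (0.921 to 1.93) whose interval includes 1. It was held by 27 of 456 and 12 of 179 cells. The CD4 cells without Cd40lg stood at 3.99 and 3.53 CPM, the Foxp3 cells at 0 and 0.83 CPM, the CD8 cells at 0.33 and 0.24 CPM, and the near-empty droplets at 2.59 and 2.36 CPM. Of 8 mast cell and basophil markers, 5 had no UMI in the mSTAR1302 Cd40lg cells and 7 had none in those of vehicle, Cpa3 and Mcpt8 among them in both. The set summed to 25.6 and 36.9 CPM, beside 19.0 and 48.8 CPM in the near-empty droplets, and Kit, a receptor gene that other cells carry too, gave 25.1 CPM of the first value and all of the other.

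Cytokine transcripts were concentrated in few Cd40lg cells. The 23 highest of the 456 mSTAR1302 cells (5%) held 89.9% of Il13 UMIs, 62.5% of Ifng UMIs and 36.9% of Tnf UMIs. Il4 and Il2 were found in 27 and 32 cells, too few for this measure, and single cells held 57 of 122 and 76 of 212 of their UMIs. A single cell held 149 of the 651 Il13 UMIs, and without the highest cell in each library the Il13 ratio was 27.9.

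Il13 and Il4 were often found in the same cells. Of 27 mSTAR1302 Cd40lg cells with Il4, 16 also had Il13, where the product of the separate shares gives 3.61 cells. All 5 cells with Il5, the gene of an eosinophil growth factor, had Il13. Of 51 cells with Csf2 28 had Il13, against 6.82 from the shares, and of 23 cells with Il3 14 had Il13, against 3.08. Cells with Il13 were deeper, with a median of 9568 UMIs against 6604 in those without, and the part of depth in these overlaps was not tested. With vehicle only 5 cells had Il13, so its overlaps there were not described.

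Of 9 cytokine genes (Ifng, Il13, Il4, Il5, Il2, Il21, Il3, Csf2 and Tnf), 124 mSTAR1302 Cd40lg cells held none and 172 held 1. At least 4 were found in 29 cells with mSTAR1302 (6.36%) and in 1 cell with vehicle (0.559%). With vehicle 64 cells held none and 61 held 1. Most Cd40lg cells of both libraries thus showed at most 1 of these transcripts.

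**Figure D4:**
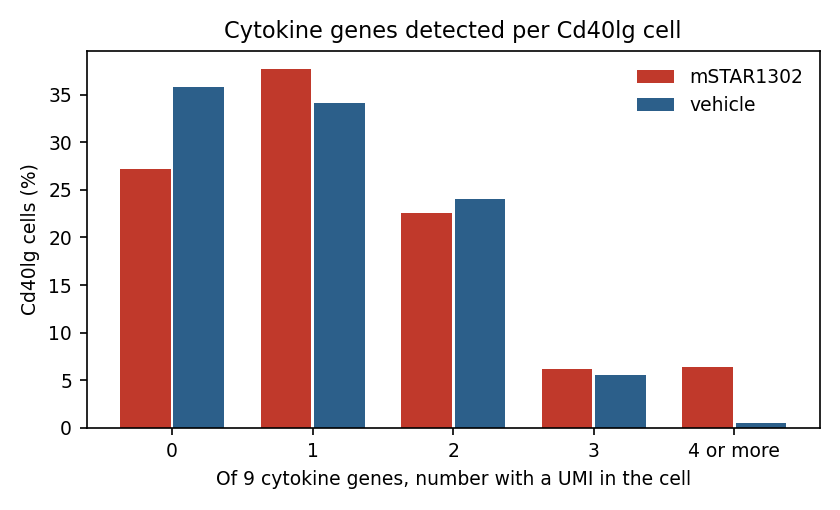
Percent of Cd40lg cells (y axis) by the number of 9 cytokine genes with a UMI (x axis) in each library. Bars are shares of 456 mSTAR1302 and 179 vehicle cells, and the class of 4 or more holds 6.36% and 0.559%.

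Several of these cytokine genes are neighbours on chromosome 11. Il4 lies at chr11:53602982-53618669 and Il13 at chr11:53631324-53634702, both on the minus strand, and Il5 lies beyond Il13 at chr11:53720794-53725106 on the plus strand. Il3 lies at chr11:54265303-54267277 and Csf2 at chr11:54247271-54249667, both on the minus strand, farther along the same chromosome. The sequences just upstream of Il4, Il13 and Il2 are shown because Il4 and Il13 shared cells and all of them are textbook targets of NFAT, the factor that calcineurin activates after T cell receptor signalling. They come from RefSeq on GRCm38.p6, end before the first annotated transcript start, read 5′ to 3′ on the minus strand, and carry the NFAT core GGAAA or its reverse complement TTTCC in capitals.
Il4, chr11:53618670-53618915: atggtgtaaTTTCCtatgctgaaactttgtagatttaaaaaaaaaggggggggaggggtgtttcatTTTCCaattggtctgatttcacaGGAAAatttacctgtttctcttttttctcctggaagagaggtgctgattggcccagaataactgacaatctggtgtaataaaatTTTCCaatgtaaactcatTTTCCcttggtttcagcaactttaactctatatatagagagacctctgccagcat
Il13, chr11:53634703-53634952: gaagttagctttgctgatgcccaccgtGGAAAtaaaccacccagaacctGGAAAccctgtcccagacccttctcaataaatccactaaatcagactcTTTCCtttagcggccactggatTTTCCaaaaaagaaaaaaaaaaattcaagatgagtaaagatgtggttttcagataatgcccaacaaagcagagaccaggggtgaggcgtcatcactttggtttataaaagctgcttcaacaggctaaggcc
Il2, chr3:37125960-37126204: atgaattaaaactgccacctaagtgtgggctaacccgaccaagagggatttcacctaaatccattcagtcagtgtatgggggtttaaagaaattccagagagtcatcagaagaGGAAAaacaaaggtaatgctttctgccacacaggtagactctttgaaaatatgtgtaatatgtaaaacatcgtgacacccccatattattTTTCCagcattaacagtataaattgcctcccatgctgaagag
The Il4 stretch held 5 matches, the Il13 stretch 4 and the Il2 stretch 2. The other Il4 window of the table, chr11:53617289-53617588, held 0 in its 250 upstream bases. Of 32851 windows of 250 upstream bases in the table, 55.6% held at least 1 match, 21.4% at least 2, 1.59% at least 4 and 0.390% at least 5. A match describes letters and is no evidence of a bound factor. The table has no Cd40lg entry.

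The regulators of type 1 and type 2 helpers lay within 2-fold between libraries. Gata3, the type 2 regulator, stood at 268 CPM and 235 CPM and was found in 317 of 456 and 120 of 179 Cd40lg cells, with a ratio of 1.14 (1.01 to 1.30). Tbx21, which encodes the type 1 regulator T-bet, stood at 39.4 CPM and 34.2 CPM, with a ratio of 1.15 (0.827 to 1.62). Il17a, the gene of interleukin 17, had 1 UMI with mSTAR1302 and 11 with vehicle, 9 of these in 1 cell of 23022 UMIs.

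The follicular markers were sparse. Bcl6, the follicular regulator, had 17 UMIs with mSTAR1302 and 23 with vehicle, or 5.07 and 15.4 CPM, under the 50 CPM floor of the calls, Cxcr5 1 and 5, and Il21 21 and 16. Of 17 follicular genes 7 passed the floor and 1, Slamf6, was at least 2-fold lower with mSTAR1302. Of 14 type 1 genes 11 passed and 4 were higher: Ifng, Il12rb2, Cxcr6 and Ly6c2. Of 18 type 2 genes 8 passed, Il13 was higher and Areg lower. The type 1 median log2 ratio was 0.21 and the type 2 median -0.35, beside -0.15 for all genes. In CD4 cells without Cd40lg these medians were 0.53, -0.55 and -0.19. Il12rb2, Cxcr6, Ly6c2 and Il13 were at least 2-fold higher with mSTAR1302 there too, and Areg was lower.

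Among TNF family ligands, the family of Cd40lg, none of the 7 genes past the floor differed by 2-fold between libraries. Tnfsf11, the gene of RANK ligand, stood at 123 CPM with mSTAR1302 and 170.5 CPM with vehicle. Ltb, the gene of lymphotoxin beta, stood at 688 and 725 CPM. Of 20 costimulatory and inhibitory receptors 14 passed and 1 was higher, Havcr2, which encodes the inhibitory receptor TIM-3, at 56.1 against 9.40 CPM. Cd28 stood at 640.0 and 619 CPM and Icos at 661 and 523 CPM.

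All 3 Ifitm genes past the floor were higher with mSTAR1302, and this was the list with the largest median log2 ratio, 2.35. They encode membrane proteins that hinder virus entry and are induced by interferons, and they lie together on chromosome 7. Ifitm1 stood at 1914 CPM (1867 to 1961) against 374 CPM (344 to 407). Ifitm2 stood at 2679 CPM against 710.0 CPM, and Ifitm3 at 1895 CPM against 248 CPM. Ifitm1 was found in 63.2% and 27.4% of Cd40lg cells, Ifitm2 in 91.7% and 52.5% and Ifitm3 in 82.5% and 39.1%. After thinning the shares were 58.8% and 17.4%, 86.8% and 40.1%, and 79.1% and 28.5%.

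The Ifitm difference extended beyond the Cd40lg cells. The log2 ratios in Cd40lg cells, CD4 cells without Cd40lg, Foxp3 cells and CD8 cells were 2.35, 2.53, 3.19 and 0.06 for Ifitm1. They were 1.91, 1.59, 1.51 and 0.40 for Ifitm2, and 2.93, 2.63, 1.88 and 0.84 for Ifitm3. Near-empty levels of Ifitm3 were 486 and 355 CPM, below the mSTAR1302 Cd40lg cells and above those of vehicle. Of 35 interferon response genes 18 passed the floor, 1 was higher and 1 lower, with a median log2 ratio of -0.04. The sources used here do not state how reads matching several members of this related family were assigned.

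Lgals7 lies at chr7:28863853-28866284 on the plus strand. It was found in 196 of 456 mSTAR1302 Cd40lg cells and 35 of 179 vehicle cells, with a ratio of 4.97 (4.21 to 5.89), and in 34.6% and 12.8% of cells after thinning. Its log2 ratio was 2.30 in Cd40lg cells and 2.69 in CD4 cells without Cd40lg, -0.05 in Foxp3 cells and -1.24 in CD8 cells. In the Foxp3 and CD8 cells Lgals7 lay under the 50 CPM floor of the calls in both libraries. Of 27 mSTAR1302 cells with Il4, 26 had Lgals7, against 11.6 from the separate shares. Of 92 cells with Tcf7 22 had Lgals7, against 39.5. With vehicle 4 of 12 cells with Il4 had Lgals7, against 2.35 from the shares. Of 104 vehicle cells with Tcf7 17 had it, against 20.3. The mSTAR1302 cells with Lgals7 were deeper, with a median of 8132.5 UMIs against 5677.5 in those without. The part of depth in these overlaps was not tested. Lgals3 and S100a6 were also at least 2-fold higher with mSTAR1302, so that 3 of 10 galectin and S100 genes past the floor were higher and none lower.

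Homing and chemokine genes lay on both sides. Cxcr6, a receptor for the chemokine CXCL16 carried by tissue-resident T cells, stood at 517 CPM with mSTAR1302 and 236 CPM with vehicle and was found in 78.3% and 57.0% of Cd40lg cells. Ccr7, Cxcr4 and Itga4, which guide cells to lymph nodes, marrow and inflamed vessels, were at least 2-fold lower. Among 5 chemokine genes past the floor Ccl1, Ccl3 and Ccl4 were higher and Xcl1 was lower, but without the highest cell of each library the ratio of Ccl4 was 1.70, under 2-fold. One vehicle cell held 342 of the 435 Xcl1 UMIs there, and without the highest cell of each library Xcl1 stood at 12.6 against 63.4 CPM.

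The cytotoxic genes Gzma, Nkg7 and Gzmb lay below their near-empty levels in both libraries. Gzma, the gene of granzyme A, stood at 61.1 CPM with mSTAR1302 and 3.36 CPM with vehicle, while the near-empty droplets stood at 916 and 17.6 CPM. Nkg7, a granule gene of killer cells, stood at 664 and 286 CPM in the Cd40lg cells and at 1206 and 724 CPM in the near-empty droplets. Gzmb, which encodes granzyme B, stood at 340.0 and 279.9 CPM, beside 1092 and 616 CPM in the droplets. One vehicle Cd40lg cell held 177 of the 417 Gzmb UMIs, and without the highest cells Gzmb stood at 321 and 164 CPM, a ratio of 1.96. A UMI was found in 52.9% and 24.0% of cells. Of 12 cytotoxic genes past the floor 3 were higher, Gzma, Nkg7 and Serpinb9, and 2 lower, Gzmc and Lamp1. Those 3 were also at least 2-fold higher with mSTAR1302 in CD4 cells without Cd40lg. Without the highest cell of each library Gzmc stood at 14.4 CPM with mSTAR1302 and 2.73 with vehicle, the opposite direction. The part of free RNA in these values was not tested.

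Tcf7, Ccr7 and Klf3, genes of naive and memory T cells, were at least 2-fold lower with mSTAR1302, and so was Slamf6. Tcf7, which encodes TCF-1, a factor that keeps T cells able to renew, stood at 55.2 CPM (47.5 to 63.7) in the mSTAR1302 Cd40lg cells and 169 CPM (149 to 191) in those of vehicle, 3.07-fold higher with vehicle (2.53 to 3.73). It was found in 92 of 456 and 104 of 179 cells, and in 12.7% and 40.1% after thinning. Ccr7 stood at 45.6 and 156 CPM, Slamf6 at 62.3 and 129 CPM and Klf3 at 37.3 and 81.9 CPM. Of 18 genes on the naive and memory list 12 passed the floor, 3 were lower, Ly6c1 was higher and 8 lay between, with a median log2 ratio of -0.47.

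The same genes were read in the other gates. The log2 ratio of Tcf7 was -1.60 in Cd40lg cells, -0.39 in CD4 cells without Cd40lg, 0.79 in Foxp3 cells and 0.15 in CD8 cells. Ccr7 had -1.75, 0.01, 0.10 and -2.07 in the same order, so it was lower in CD8 cells too. Klf3 had -1.11, 0.11, 1.19 and 1.96, and Slamf6 had -1.04, 0.41, 0.81 and 0.13. In the Foxp3 cells Klf3 lay under the 50 CPM floor in both libraries, so its ratio there was not called. These differences between gates were not tested. Itga4, the gene of an integrin chain that binds VCAM-1, stood at 24.2 CPM with mSTAR1302 and 159.7 CPM with vehicle, with log2 ratios of -2.68, -0.68, -0.26 and 0.87. Klf2, which maintains recirculation, stood at 449 and 686 CPM, short of 2-fold.

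**Figure D5:**
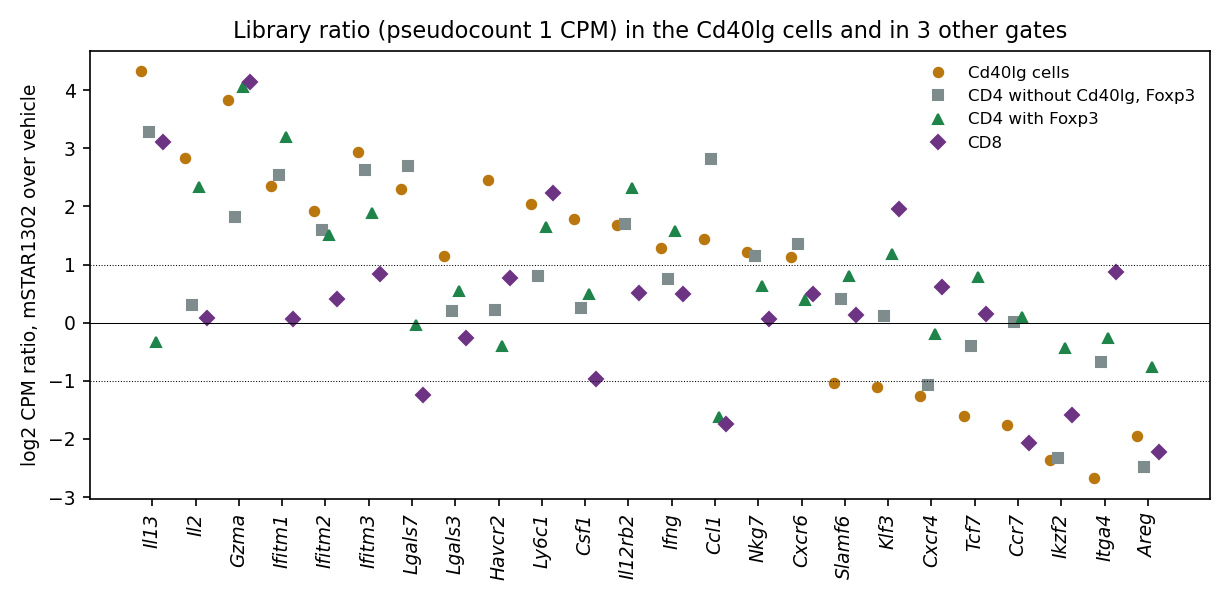
Log2 CPM ratio of mSTAR1302 over vehicle (y axis, pseudocount 1 CPM) for 24 named genes in Cd40lg cells and 3 other gates. Dotted lines mark 2-fold. Ifitm1 lies high in every CD4 gate and Lgals7 in both Foxp3-negative CD4 gates. Tcf7, Slamf6 and Klf3 lie below 0 in the Cd40lg cells and near or above it in Foxp3 and CD8 cells. Some points, such as Lgals7 in Foxp3 and CD8 cells, lie under the 50 CPM floor of the calls.

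Few listed genes of division or metabolism differed by 2-fold between libraries, and those that did were higher with mSTAR1302. Mki67, a gene of dividing cells, stood at 70.7 and 47.6 CPM and was found in 70 and 22 Cd40lg cells. Its ratio was 1.48, and 2.12 without the highest cell of each library. Of 7 proliferation genes past the floor Stmn1 was higher. Hist1h2ap, a histone gene of a family with near-identical copies, stood at 621 and 76.5 CPM, and Pclaf, a replication gene, at 71.9 and 11.4 CPM. In the other gates their log2 ratios were between -1.37 and 0.75. Of 14 glycolysis genes past the floor 1 was at least 2-fold higher, the glucose transporter gene Slc2a3, with a list median of 0.67. AA467197 and Adam8 were also among the 12 genes with the highest ratios, at 176 against 26.2 CPM and 51.3 against 9.40 CPM.

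Many of the lowest genes with mSTAR1302 traced to single vehicle cells. Ctsk had 1404 UMIs in the vehicle Cd40lg cells, 1399 of them in the cell of 56210 UMIs, and without each library's highest cell stood at 3.49 CPM. Mmp9, Acp5, Cd63 and Cd68, genes of osteoclasts and macrophages, likewise had 612 of 618, 1144 of 1206, 97 of 110 and 66 of 75 UMIs in that cell. Without it they stood at 4.18, 43.2, 9.07 and 6.28 CPM, and in the mSTAR1302 cells without the highest cell of each gene at 0, 26.9, 1.79 and 2.09 CPM. Gzmc had 722 of its 726 vehicle UMIs in another cell of 23022 UMIs, and without the highest cells stood at 14.4 CPM with mSTAR1302 and 2.73 with vehicle, the opposite direction. Tyrobp, Fcer1g, Apoe and Cd74 had between 50.5% and 83.7% of their vehicle UMIs in the 56210 UMI cell. They were lower without it too: Tyrobp stood at 2.09 against 41.1 CPM and Cd74 at 3.59 against 36.3 CPM. Near-empty droplets held Tyrobp at 49.8 and 277 CPM and Cd74 at 90.8 and 200.4 CPM, and the part of free RNA was not tested. Bmyc, a relative of Myc, was spread over 34 vehicle cells and stood at 7.46 against 55.0 CPM.

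The receptor segments that mSTAR1302 is described to bind were counted in the Cd40lg cells. Trbv13-2 and Trbv13-3 took 18 of 183 Trbv UMIs with mSTAR1302 (9.84%, 5.93 to 15.1) and 12 of 83 with vehicle (14.5%, 7.70 to 23.9). The difference of -4.62 points had an interval of -14.4 to 3.29 that includes 0. In the CD8 cells the segments took 43.5% of 2187 and 15.1% of 865 UMIs, a difference of 28.4 points (25.1 to 31.4), which lies above the interval in the Cd40lg cells. The CD4 cells without Cd40lg had 15.3% of 72 and 9.52% of 84 UMIs and the Foxp3 cells 23.8% of 42 and 11.1% of 414. A Trbv UMI was present in 129 of 456 and 63 of 179 Cd40lg cells. Reads of 3′ libraries seldom reach the variable segment, and near-identical segments may share them. Trbv20 with 32 UMIs and Trbv19 with 28 were the most frequent in the mSTAR1302 Cd40lg cells.

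Within the gate, cytokine levels were read by the number of Cd40lg UMIs. With mSTAR1302 Il13 stood at 127, 70.6 and 336 CPM in cells with 1, 2 and at least 3 Cd40lg UMIs, Il4 at 11.3, 9.74 and 77.1 CPM and Csf2 at 35.6, 48.7 and 165 CPM. Without the highest cell of each class Il13 stood at 70.0, 39.5 and 224 CPM, Il4 at 9.78, 4.93 and 33.4 CPM and Csf2 at 20.5, 25.8 and 132 CPM. Ifng stood at 502, 491 and 349 CPM, but at 263, 238 and 329 CPM without those cells, which held 297, 209 and 29 of its UMIs. Gata3 stood at 262, 229 and 298 CPM. The cells with at least 3 were deeper, with a median of 7977.5 UMIs against 6135 and 6116. With vehicle Il4 stood at 10.3, 60.4 and 22.6 CPM and Ifng at 151, 201 and 210.5 CPM. Without the highest cell of each class these were 7.46, 10.1 and 12.8 CPM for Il4 and 133, 118 and 175 CPM for Ifng.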

How the data were processed

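The deposited files hold raw UMI counts per gene and barcode for both libraries, before any choice of cells. Per the submitters' processing notes Cell Ranger 6.0.1 and the mm10 build were used, while the file headers carry software version 4. FastQC, MultiQC 1.9 and Seurat are also named there.

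Barcodes with at least 1000 UMIs, at least 500 genes and at most 10% mitochondrial UMIs were kept, and the gate was applied to their counts. For each gate, counts were added up per library and scaled to CPM. Intervals are exact Poisson for levels, exact conditional binomial for ratios, Clopper-Pearson for shares and Newcombe for differences, at a confidence level of 95%. A gene was called at a 2-fold ratio with a pseudocount of 1 CPM if it had at least 50 CPM in either group. No test was made, since each group is 1 library. Thinning drew 3000 UMIs from each cell and left out shallower ones, 31 and 7 of the Cd40lg cells with mSTAR1302 and vehicle. Macrophages were gated on at least 5 UMIs over C1qa, C1qb and C1qc and none of the Cd3 genes. Near-empty droplets were those with 100 to 500 UMIs, a window chosen after the barcode totals were seen. No doublet caller was run; settings without deep cells or without cells that hold transcripts of other types took its place.

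Named genes were the 6 markers, 14 helper genes, and in each direction the 12 genes with the largest ratio, by the smaller of both libraries for the contrast of gates. T cell receptor, immunoglobulin, mitochondrial, ribosomal and unnamed model genes were not eligible. Other genes come from the role lists, and a few genes that these rules cover are not reported here. The members and lists were chosen with earlier results of these data known. The settings without Ikzf2, Ccr8 or Klrg1 cells and without each gene's highest cell were added after seeing the data. Of 32285 gene identifiers 32158 were matched to GENCODE M21. Python 3.11.15 was used with pandas 2.3.3, SciPy 1.17.1, NumPy 2.4.6 and, for plots, matplotlib 3.10.9. The code that makes the calls was also run on simulated counts. That run is no evidence for any call in these data, including those that rest on a single cell.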

Additional observations from a re-analysis of the deposited data

How the results depend on the processing

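Each group is 1 library, so no result has a replicate check, and treatment cannot be told apart from library or mice. Genes under 0.895 CPM with mSTAR1302 or 2.01 CPM with vehicle lie under 3 UMIs. No paired analysis was possible because each group has 1 library. The Cd40lg share was higher with mSTAR1302 in every setting run. Its difference of 26.5 points was 17.5 with at least 2 Cd40lg UMIs, 11.9 with cells thinned to 1000 UMIs before the gate and 14.1 without cells holding Ikzf2, Ccr8 or Klrg1. The difference in Trbv13-2 and Trbv13-3 share, -4.62 points, was 2.86 without cells with UMIs of other cell types. That setting kept 399 of the 456 mSTAR1302 Cd40lg cells but only 89 of the 179 vehicle cells, so its values rest on far fewer vehicle cells.

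The counts of genes depended on the floor. The 2 genes higher and 5 lower than in CD4 cells without Cd40lg were 25 and 133 with no floor. The lower count was 12 at 20 CPM, 1 at 100 CPM, 8 after thinning, 10 with cells weighted equally, 1 without cells holding Ikzf2, Ccr8 or Klrg1 and 2 without the highest cell. The higher count was 1 at a mitochondrial limit of 5% and 1 without cells with UMIs of other cell types. Between libraries the 44 higher and 76 lower genes were 384 and 1573 with no floor and 27 and 33 at 100 CPM. The lower count was 244 at 20 CPM, 126 after thinning, 48 under median-of-ratios scaling and 39 without the highest cell. Apart from the floor, fewer cells or the scaling itself, the cause was not tested.

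Of 2832 values of named genes under other settings, 2384 stayed within their interval and 22 called values took the opposite sign. Against CD4 cells without Cd40lg in vehicle, the log2 ratio of Ctsk was -0.39 with at least 2 Cd40lg UMIs and -0.65 without cells of other types. That of Mmp9 was -0.089 and -1.44 there, -0.20 at the 5% limit, -0.31 without cells above the 95th percentile and -0.22 without the highest cell. Without cells of other types Apoe was 0.15, Xcl1 -0.82 and Gzmc -0.69, and Gzmc was 1.78 with mSTAR1302 and 2.12 between libraries. Without Ikzf2, Ccr8 or Klrg1 cells Areg was 0.78 and 0.75 in the mSTAR1302 and vehicle libraries, Itgav 0.35, Rgs16 0.20, Xcl1 -0.44 and Gzmc -0.61 in vehicle, and Gzmc 2.61 between libraries. Without the highest cell Gzmc was 0.97, -1.13 and 2.06 in mSTAR1302, in vehicle and between libraries.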
